A study of Mus musculus with 6 samples.

Results

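The genes described here are 10 markers of epithelial and mesenchymal identity, measured by bulk RNA sequencing in 6 samples of CT26 tumours. They were taken by gene symbol from a table of 25251 genes, and all 10 symbols had 1 row each. The epithelial members are Epcam, Cdh1, Krt8, Krt18 and Krt19. The mesenchymal members are Cdh2, Vim, Zeb1, Snai2 and Twist1. The choice used no measured value, although results of these data were known when it was made. Of the 10 genes, 8 had a mean of at least 10 normalized counts (reads divided by 1 size factor per library) over the 6 libraries and were tested, while Epcam and Krt19 fell below that filter.

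CT26 is a carcinogen-induced mouse colon carcinoma line of BALB/c origin. Per the labels, CT26 cells were grown under the skin of BALB/c mice, all samples carry the genotype label WT, and mice were randomized at a tumour volume of 100 mm3. The irinotecan group (CPT-11 in the labels, 3 samples) received 25 mg/kg of the drug intraperitoneally every 4 days, and the solvent group (3 samples) received solvent. The drug is converted in the body to SN-38, which inhibits topoisomerase I. Mouse age and sex and the interval between the last dose and collection are not stated in the labels used here. The design text mentions duplicate profiling but 3 samples carry each label. Nothing in the labels ties the 3 to different animals, and the p-values below then reflect only the variation among the samples at hand, which may be technical. Where 3 values are listed for a group, they are in the order of replicates 1, 2 and 3. In a whole tumour, fewer cells of a type and less RNA per cell cannot be told apart.

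Epithelial cells hold together through E-cadherin, the product of Cdh1, and through Epcam, a second adhesion molecule of the epithelial surface, and their cytoskeleton contains keratin filaments. Each keratin filament pairs a type II keratin such as Krt8 with a type I keratin such as Krt18 or Krt19, and an unpaired keratin is degraded. Mesenchymal cells use N-cadherin, from Cdh2, and filaments of vimentin, from Vim. The transcription factors Zeb1, Snai2 and Twist1 bind E-box sequences and repress Cdh1 and other epithelial genes in the transition from an epithelial to a mesenchymal state.

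Promoter sequence was available from RefSeq (GRCm38.p6) for 5 of the 10 genes, Epcam, Krt8, Krt18, Vim and Twist1. The E-box letters CACCTG, read on both strands (CAGGTG on the other), are a form bound by Zeb1 and Snai2. They were found in 3 of the 5 windows of 250 bases upstream of the RefSeq start, all of epithelial members. The windows of Vim and Twist1 did not hold them. The RefSeq start can differ from the deposited gene bounds. The Vim window (chr2:13574061-13574310) lies inside the deposited Vim gene (13573927 to 13582826), so it is not upstream on those bounds. The windows of Krt8 and Krt18 partly overlap their deposited genes, and the Krt8 match lies inside its gene. Over all 32851 upstream windows of the same length, 17.2% held the letters at least once and 2.06% held them 2 or more times. A match is a description of the sequence and not evidence of binding. The 3 windows shown, of Epcam, Krt8 and Krt18, were picked because they held a match. They lie at chr17:87635729-87635978 (plus strand) for Epcam, chr15:102004343-102004592 (minus strand) for Krt8 and chr15:102027966-102028215 (plus strand) for Krt18. Each is written 5′ to 3′ on the strand of its gene, with the E-box in capitals.
Epcam: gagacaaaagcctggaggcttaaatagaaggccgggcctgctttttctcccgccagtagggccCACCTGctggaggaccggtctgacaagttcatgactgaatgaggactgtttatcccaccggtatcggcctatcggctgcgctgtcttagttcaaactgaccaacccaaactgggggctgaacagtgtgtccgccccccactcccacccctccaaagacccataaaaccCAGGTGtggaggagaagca
Krt8: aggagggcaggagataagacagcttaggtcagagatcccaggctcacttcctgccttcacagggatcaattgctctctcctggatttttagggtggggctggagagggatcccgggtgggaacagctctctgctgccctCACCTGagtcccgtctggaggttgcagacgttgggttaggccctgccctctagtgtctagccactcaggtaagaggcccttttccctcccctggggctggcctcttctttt
Krt18: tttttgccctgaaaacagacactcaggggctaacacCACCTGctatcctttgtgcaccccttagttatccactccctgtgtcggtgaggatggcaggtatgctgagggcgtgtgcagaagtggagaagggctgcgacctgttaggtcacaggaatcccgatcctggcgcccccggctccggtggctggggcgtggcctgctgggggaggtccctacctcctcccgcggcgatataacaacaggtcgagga
Counted back from the RefSeq start, the match begins at base -111 in Krt8 and at base -214 in Krt18. In Epcam the 2 matches begin at bases -187 and -19.

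The libraries held 13940650 to 15656894 reads. Irinotecan replicate 1 stood apart from the rest: its log2 values over the 14639 genes tested correlated with those of the other libraries at 0.932 to 0.941, against 0.975 to 0.985 among the other 5. It also held less of the transcripts rich in G and C. Relative to the mean of the other 5 libraries, its median log2 difference was 0.24 for genes with a GC content under 45% and -0.72 for genes at or above 60%. Where a sign or a call turned on this library, the value without it is given as well. Changes in size without it are given for some genes only.

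The mesenchymal members were more abundant than the epithelial members, in irinotecan and in solvent tumours. Per kilobase of the deposited gene length, Vim averaged 16563 ± 743 normalized counts in irinotecan tumours and 17872 ± 1703 in solvent tumours (SD, n = 3 each). It was the gene with rank 5 among all 25251 by mean normalized count, and rank 20 per kilobase. Twist1 followed with 685 ± 125 per kilobase in irinotecan tumours and 666 ± 12.4 in solvent tumours. Snai2 (182 ± 38.6 with irinotecan and 169 ± 2.33 with solvent), Cdh2 (131 ± 9.79 and 133 ± 3.76) and Zeb1 (116 ± 29.3 and 104 ± 4.30) came next. All 5 mesenchymal members lay above all 5 epithelial members in the mean of either group. The nearest were Zeb1 and Krt18. In solvent libraries Zeb1 went down to 100.1 per kilobase and Krt18 up to 99.0. In solvent tumours, neighbours in this order did not overlap between libraries. In irinotecan tumours Snai2 overlapped Cdh2, and Cdh2 overlapped Zeb1. Among the epithelial members Krt18 overlapped Krt8, and Epcam overlapped Krt19, both near the floor of detection.

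Among the epithelial members, Krt18 averaged 63.7 ± 28.4 normalized counts per kilobase in irinotecan tumours and 90.4 ± 7.46 in solvent tumours, and Krt8 averaged 56.0 ± 32.2 and 33.5 ± 7.63 (SD, n = 3 each). Cdh1 was far lower, at 4.91 ± 3.04 per kilobase with irinotecan and 3.99 ± 1.51 with solvent. Over the 6 libraries the per-kilobase level of Vim was 223 times that of Krt18, and that of Cdh2 was 29.6 times that of Cdh1. The sum of the mesenchymal members per kilobase exceeded the sum of the epithelial members 293, 110 and 116 times in irinotecan tumours, and 176, 137 and 129 times in solvent tumours. The highest of these ratios was that of irinotecan replicate 1, and the other 2 irinotecan ratios lay below all 3 solvent ratios. Most of the mesenchymal sum was Vim. With Vim left out, the ratios were 16.6, 7.31 and 7.63 in irinotecan tumours, and 9.10, 7.77 and 8.08 in solvent tumours.

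Epcam was essentially undetected. It had 3 reads in irinotecan replicate 2 and 0 in the other 5 libraries, so both groups were at or under the 3 reads that a count of 0 allows. Krt19, the type I keratin of simple epithelia and ducts, had 0 reads in each irinotecan library and 4, 2 and 4 reads in solvent tumours. Summed over each group this was 0 of 44280479 reads with irinotecan, which allows up to 0.0677 RPM (the 3 reads a count of 0 allows over the whole group, scaled to library size), and 10 of 44963617 with solvent, or 0.222 RPM. The solvent value was 3.28 times that irinotecan bound, with the counting error of the 10 solvent reads left out. The bound covers counting error of the irinotecan reads only, and Krt19 was too scarce for the test. With no filter on low values, its log2 fold change was -2.05 (limma adjusted p = 0.797).

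**Figure D1:**
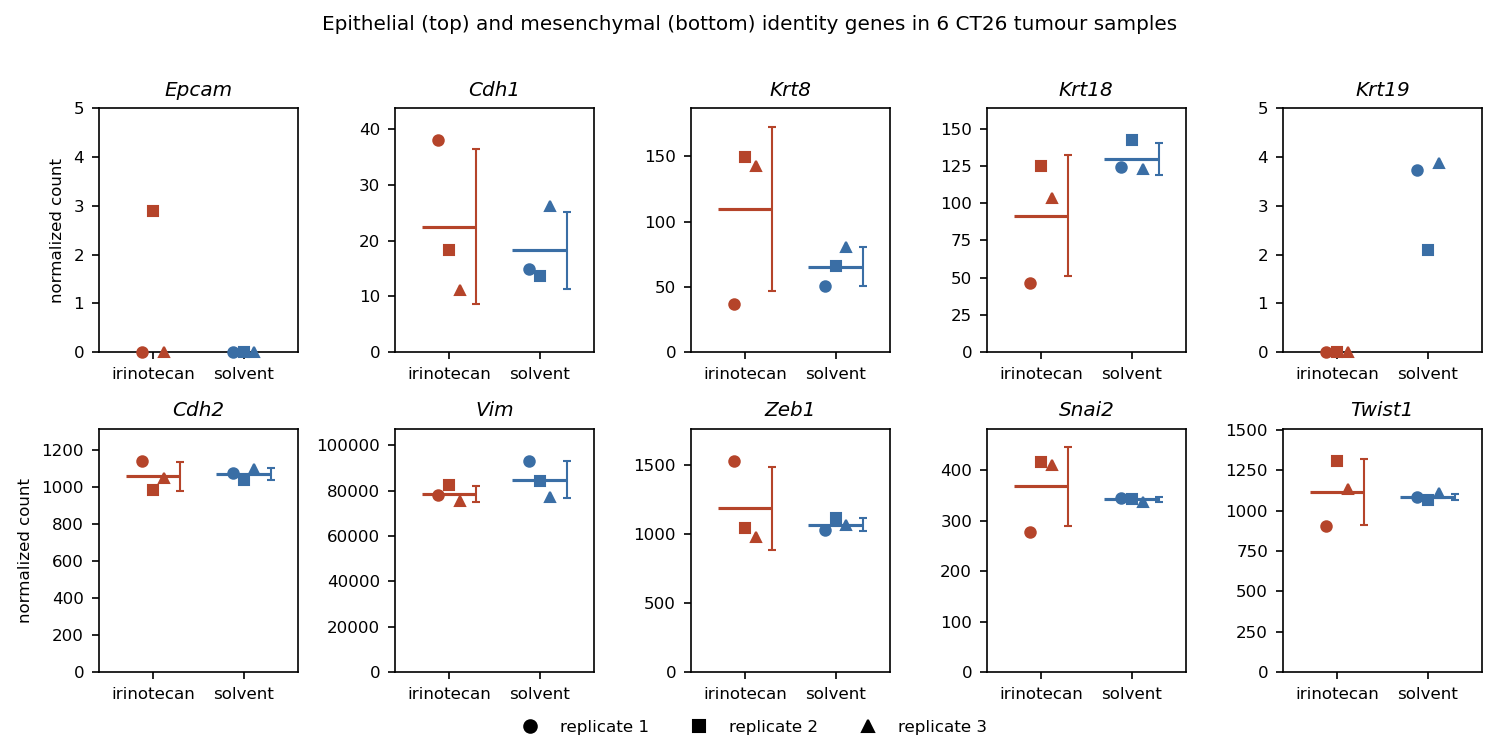
Normalized counts of the 10 genes in each library, with irinotecan left of solvent in each panel; points are libraries, lines are group means and bars are SD (drawn only for genes with a mean of at least 10; y axes start at 0 and differ between panels). Epcam and Krt19 stay under 4 normalized counts in every library, whereas Vim reaches at least 75451 in each, and irinotecan replicate 1 (circle) lies away from replicates 2 and 3 for Krt8, Krt18, Cdh1, Zeb1 and Snai2.

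The label calls the cells colon cancer cells, and most markers of colon epithelium were at low counts. Of 15 colon identity genes listed, 11 were analysed and 4 had a mean of at least 10 normalized counts. Cdx2, the intestinal transcription factor, and Vil1, a microvillus protein, stayed under 5 normalized counts in every library. Lgals4, an intestinal galectin, was present at 94.4 ± 46.6 normalized counts in irinotecan tumours and 103.8 ± 21.1 in solvent tumours, and the goblet cell protein Clca1 at 155.3 ± 9.94 and 149.2 ± 64.9 (SD, n = 3 each). The exception among the keratins was Krt20, a keratin of differentiated intestinal epithelium. Its normalized counts were 1943, 1665 and 1655 in irinotecan tumours, against 1759, 1608 and 2098 in solvent tumours, with overlapping ranges. Per kilobase its mean over the 6 libraries, 928, was 12.0 times that of Krt18.

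Of the 20 keratin genes in the table, 6 had a mean of at least 10 normalized counts, in descending order per kilobase Krt20, Krt18, Krt80, Krt8, Krt10 and Krt87. Krt87 owed this to a single library, with 102.5 normalized counts in solvent replicate 2 and 0 in the other 5. Of the 15 genes named Cdh in the table, 9 passed the same filter. Cdh26 had the highest level per kilobase (186), ahead of the endothelial cadherin Cdh5 (169) and Cdh2 (132), and Cdh1 (4.45) was sixth in that order. Krt5 and Krt14, the basal keratins of skin, were under 12 normalized counts in every library. Both were at 0 in irinotecan replicate 2 and in solvent replicates 2 and 3. The 7 keratinocyte markers analysed, of 10 listed, summed to 63.7 to 151 normalized counts in irinotecan tumours and 86.8 to 115 in solvent tumours. Most of each sum came from Krt10, Sfn and Trp63, which passed the filter with means of 47.0, 33.2 and 13.9 normalized counts over the 6 libraries.

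**Figure D2:**
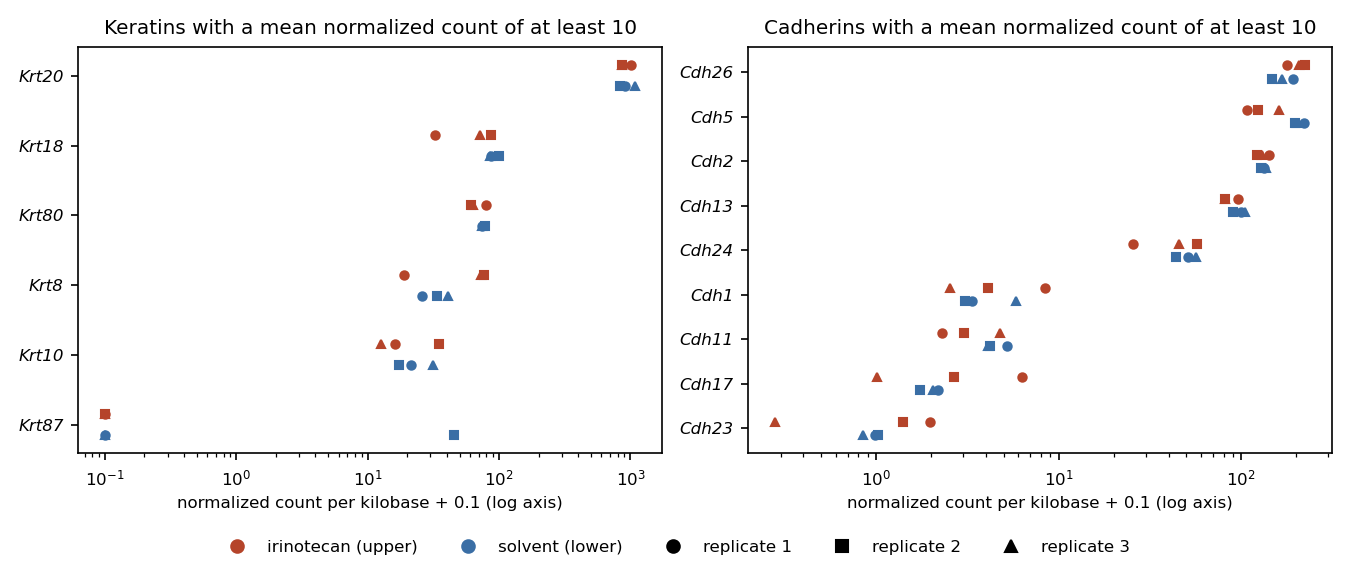
Levels of keratins (left) and cadherins (right) per kilobase of gene length, 1 point per library on a log axis after adding 0.1, with irinotecan above solvent for each gene. Krt20 lies above all other keratins in every library, and Cdh1 lies below Cdh2 in every library.

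Irinotecan was then compared with solvent. None of the 8 members tested passed the threshold of limma (adjusted p under 0.05 over all genes tested), against 0% of all 14639 genes, and 0 of the 8 had an unadjusted p under 0.05, against 5.77% of all genes. Log2 fold changes above 0 were found for 5 of the 8 (median 0.053) and for 7049 of all genes tested (median -0.014). Without irinotecan replicate 1 they were found for 3 of the 8 (median -0.075). For none of the 8 did all irinotecan libraries lie on one side of all solvent libraries, whereas this held for 14.6% of all genes tested (6.68% with irinotecan higher and 7.89% with irinotecan lower). The authors' deposited table gives 47 genes, or 0.186% of all, an adjusted p under 0.05. They include 0 of the 10 members, among which the lowest value in that table is 0.881, for Krt8.

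Krt8 had 36.96, 149.3 and 142.9 normalized counts in irinotecan tumours, and 50.5, 65.9 and 80.4 in solvent tumours. Irinotecan replicates 2 and 3 lay above every solvent library and irinotecan replicate 1 below every one. The log2 fold change was 0.52 (SE 0.517, 95% interval -0.67 to 1.70, limma adjusted p = 0.775). Without irinotecan replicate 1 it was 1.17 (SE 0.248, interval 0.62 to 1.71), a 2.25-fold difference that did not pass over all genes (limma adjusted p = 0.121). Krt8 was then the single member with an unadjusted p under 0.05, where 9.5% of all genes had one and 4.34% had one with irinotecan higher. In the same 5 libraries the adjusted p was 0.116 by edgeR and 0.0147 by DESeq2, which called 1.13% of its genes, 0.557% with irinotecan higher. Over all 18 alternatives the adjusted p of Krt8 ran from 0.0147 to 0.989 and its log2 fold change from 0.18 to 1.17, positive in each.

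Krt18, the partner of Krt8 in the filament, had 46.2, 125.2 and 103.4 normalized counts in irinotecan tumours and 124.3, 142.2 and 123.0 in solvent tumours. Irinotecan replicates 1 and 3 lay below all solvent libraries, and replicate 2 lay within their range. The log2 fold change was -0.61 (SE 0.362, 95% interval -1.44 to 0.22, limma adjusted p = 0.743) and -0.19 without irinotecan replicate 1. The 2 genes are neighbours on chromosome 15 of GRCm38, Krt8 from 101996698 to 102004482 on the minus strand and Krt18 from 102028180 to 102032027 on the plus strand, 23697 bases apart. Krt8 overlaps the antisense noncoding gene Gm36026, whose mean was 4.42 normalized counts. Without a stated strand setting, reads of the pair cannot be told apart.

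The ratio of the partner genes within each library was also computed. Krt8 over Krt18, both per kilobase, was 0.587, 0.875 and 1.01 in irinotecan tumours, and 0.298, 0.340 and 0.480 in solvent tumours. All 3 irinotecan ratios, replicate 1 included, lay above all 3 solvent ratios, with means of 0.826 ± 0.218 and 0.373 ± 0.0951 (SD, n = 3 each). No test was made on this ratio, and single genes whose groups did not overlap made up 14.6% of those tested. The lowest irinotecan ratio, in replicate 1, rests on 36 Krt8 reads and 45 Krt18 reads. The highest solvent ratio, in replicate 3, rests on 83 and 127. Counting error of the ratios was left out. The transcripts of the 2 genes had similar GC contents of 57.1% and 56.4%.

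**Figure D3:**
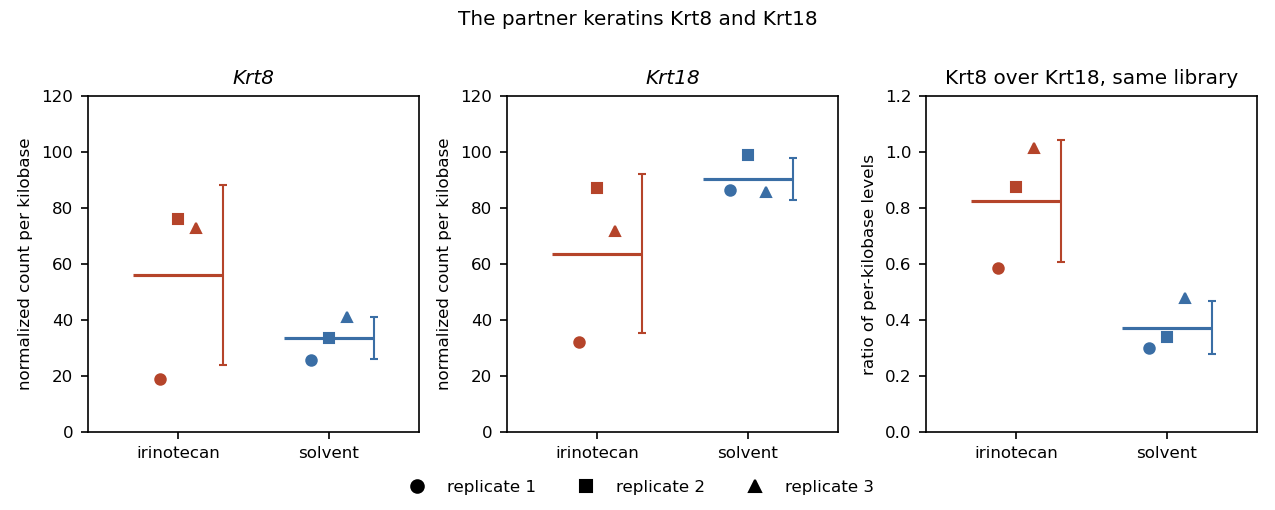
Krt8 and Krt18 per kilobase and their ratio within each library, irinotecan left of solvent; points are libraries, lines are means and bars are SD (n = 3). Irinotecan replicate 1 is the lowest library for both genes, while the ratio of Krt8 to Krt18 is higher in every irinotecan library (0.587 to 1.01) than in every solvent library (0.298 to 0.480).

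Cdh1 had 37.99, 18.3 and 11.1 normalized counts in irinotecan tumours and 15.0, 13.6 and 26.1 in solvent tumours. The groups overlapped, and these levels correspond to 11 to 37 reads per library. The log2 fold change was 0.18 (SE 0.536, 95% interval -1.05 to 1.40, limma adjusted p = 0.925), and it was -0.27 without irinotecan replicate 1, which held the highest value. The interval thus spans more than a doubling in either direction.

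Vim had 77838, 82390 and 75451 normalized counts in irinotecan tumours and 93206, 83999 and 77102 in solvent tumours. It took 0.532% ± 0.0302 of the reads in irinotecan tumours and 0.577% ± 0.0593 in solvent tumours (SD, n = 3 each). The ranges overlapped, and the log2 fold change was -0.11 (SE 0.185, interval -0.53 to 0.32, limma adjusted p = 0.863). With quantile normalization the sign turned (0.076). Cdh2 varied least, with 1142, 985 and 1045 normalized counts in irinotecan tumours and 1075, 1037 and 1097 in solvent tumours. Its log2 fold change was -0.019 (SE 0.126, limma adjusted p = 0.966), and the 95% interval of -0.31 to 0.27 was the narrowest among the 8 members.

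The 3 repressors of epithelial genes differed in how irinotecan replicate 1 behaved. Zeb1, a zinc finger repressor, had 1533, 1048 and 983 normalized counts in irinotecan tumours and 1027, 1116 and 1066 in solvent tumours. Irinotecan replicate 1 was the highest library, and replicate 3 the lowest. The log2 fold change was 0.12 (SE 0.183, limma adjusted p = 0.835), and it turned to -0.075 without that library.

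Snai2, the zinc finger factor Slug, had 278, 417 and 409 normalized counts in irinotecan tumours, and 346, 344 and 337 in solvent tumours. Irinotecan replicates 2 and 3 lay above the narrow solvent range and replicate 1 below it. Its log2 fold change was 0.082 (SE 0.192, limma adjusted p = 0.904), or 0.27 without irinotecan replicate 1 (adjusted p = 0.549).

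Twist1, a basic helix-loop-helix factor, showed the same layout, with 905, 1309 and 1134 normalized counts in irinotecan tumours and 1084, 1065 and 1106 in solvent tumours. Its log2 fold change was 0.024 (SE 0.159, limma adjusted p = 0.965), or 0.17 without irinotecan replicate 1 (adjusted p = 0.661). On GRCm38, Snai2 lies on chromosome 16 from 14705852 to 14709385, Twist1 on chromosome 12 from 33957671 to 33959829, Vim on chromosome 2 from 13573927 to 13582826, Cdh1 on chromosome 8 from 106603351 to 106670246, Krt19 on chromosome 11 from 100140810 to 100148665 and Epcam on chromosome 17 from 87635979 to 87651106. Cdh2 and Zeb1 lie on chromosome 18. The noncoding gene Gm10125 overlaps Zeb1 on the opposite strand, with a mean of 9.27 normalized counts.

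**Figure D4:**
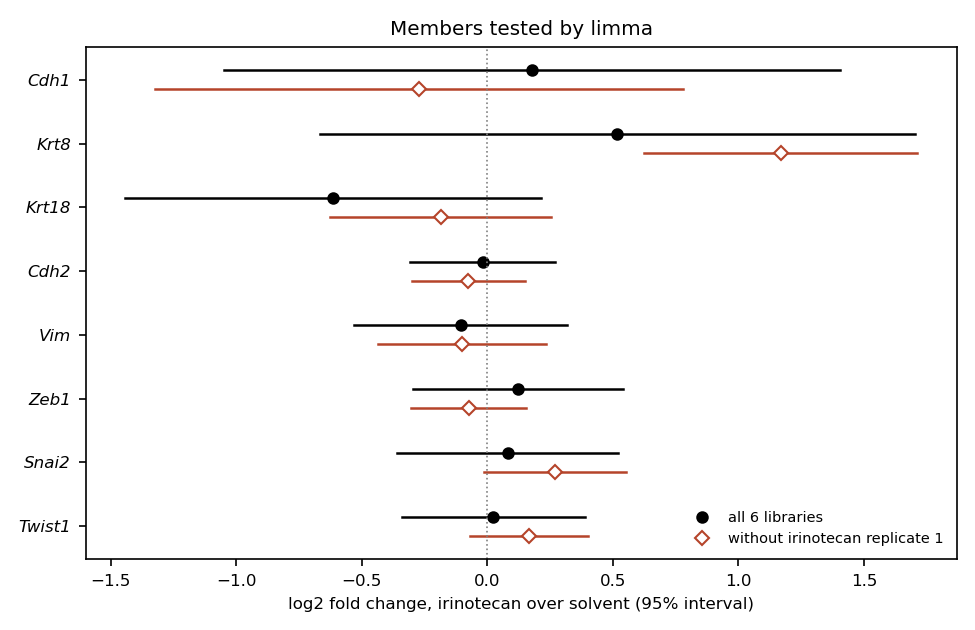
Log2 fold change of irinotecan over solvent with its 95% interval (limma) for the 8 members tested, from all 6 libraries (filled) and without irinotecan replicate 1 (open). With all libraries every interval includes 0. Without irinotecan replicate 1 the Krt8 interval (0.62 to 1.71) does not, and Cdh1 and Zeb1 change sign.

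The members also differed in how far irinotecan replicate 1 departed from genes of like GC content. Krt8 and Krt18 were 1.25 and 1.39 log2 units lower in it than the mean of the other 5 libraries (differences of -1.25 and -1.39), whereas the median difference of genes within 1 percentage point of their GC content was -0.39 and -0.31. Cdh1 had a difference of 1.18 against a median of -0.024, and Zeb1 of 0.55 against 0.12. Snai2 had -0.41 where genes of its GC content had a median of 0.23. Vim (-0.079 against -0.12), Cdh2 (0.12 against 0.22) and Twist1 (-0.33 against -0.50) lay close to such genes. With a trend on GC content and gene length removed from each library, the log2 fold change was 0.77 for Krt8 and -0.36 for Krt18, and neither passed (limma adjusted p = 0.697 and 0.705). For Twist1 the same correction gave 0.36, against 0.024 without it, which did not pass either (limma adjusted p = 0.697).

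**Figure D5:**
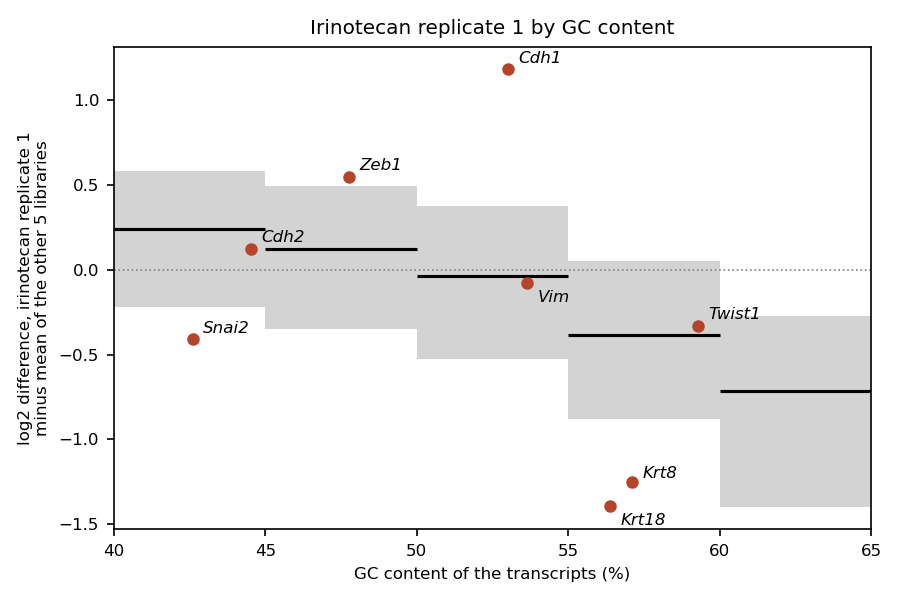
Log2 difference of irinotecan replicate 1 from the mean of the other 5 libraries (y) against the GC content of the transcripts (x) for the 8 members tested (points). Black lines are medians and grey bands run between the quartiles of all genes tested in 5 ranges of GC content. Krt8 and Krt18 lie below the band at their GC content, as does Snai2, Cdh1 and Zeb1 lie above it, and Vim, Cdh2 and Twist1 lie inside.

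Markers of other cell types were read for the same libraries, since Vim, Cdh2, Zeb1 and Twist1 are also expressed by stromal cells. The 10 leukocyte markers, all with a mean of at least 10, summed to 9641 normalized counts in irinotecan replicate 1, to 21486 and 18134 in replicates 2 and 3, and to 19280 to 19519 in solvent tumours. Lyz2 was the largest part of each leukocyte sum, with 6247 normalized counts in irinotecan replicate 1. In that library Cd3e (42.1) and Cd3g (38.0) lay within the solvent range, and the other leukocyte markers lay below it. The 10 fibroblast markers summed to 37595 to 42226 with irinotecan and to 32346 to 44639 with solvent. Col1a2 was the largest part of each fibroblast sum. The 10 endothelial markers summed to 1753 to 2746 with irinotecan and to 3154 to 3374 with solvent, so these groups did not overlap. Among all genes tested, 14.6% did not overlap. Of these markers, Cdh5, Pecam1, Tie1 and Emcn did not overlap, whereas Eng, Esam, Kdr, Tek, Vwf and Cldn5 did. Limma called 0 of the 10, as it called 0 of all genes tested, and 1 had a positive log2 fold change. An unadjusted limma p under 0.05 with irinotecan lower was found for 5 of the 10 and for 451 of all 14639 genes. Their median log2 fold change was -0.59, and -0.45 without irinotecan replicate 1, against -0.014 for all genes tested. The skeletal muscle markers, 9 of 10 with a mean of at least 10, ranged from 159 to 962 with irinotecan and from 26.1 to 401 with solvent. No leukocyte, fibroblast or endothelial marker was at 0 in any library. Their part in the values of the members was not tested.

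Genes with the most similar pattern over the 6 libraries were found by the smallest root mean square difference of centred log2 values. For Krt8 these were Tgif2 (difference 0.188) and Slurp1 (0.207), for Cdh1 they were Mpv17l (0.118) and Nipal1 (0.170), for Vim they were the ribosomal protein genes Rpsa (0.0317) and Rpl6 (0.0395), and for Zeb1 they were Dcaf5 (0.0187) and Uqcrc2 (0.0212). Among all genes eligible, the median difference was 0.795 for Krt8, 0.846 for Cdh1, 0.269 for Vim and 0.335 for Zeb1. The likeness rests on 6 libraries and is a description. Irinotecan replicate 1 was the highest library for Cdh1, Zeb1 and the genes named for them, and the lowest for Krt8, Tgif2 and Slurp1. How far the likeness rests on that library was not tested.

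Other genes of epithelial and mesenchymal programmes were read from 6 lists, and limma called 0 members in either direction in each. Of 24 junction and adhesion genes, 12 were tested and 8 had a positive log2 fold change (median 0.14, and 0.065 without irinotecan replicate 1, against -0.014 for all genes). The catenins Ctnna1 (8321 ± 1100 normalized counts in irinotecan tumours and 7639 ± 109 in solvent tumours) and Ctnnb1 (6218 ± 2074 and 5330 ± 192), which join cadherins to actin, were the most abundant per kilobase (SD, n = 3 each). The log2 fold change of Ctnnb1, 0.17 (SE 0.216), was -0.085 without irinotecan replicate 1, its highest library. In this list the smallest unadjusted p belonged to the desmosomal cadherin Dsc2, with 52.4, 30.8 and 8.11 normalized counts in irinotecan tumours and 3.74, 9.41 and 11.6 in solvent tumours (log2 fold change 1.54, SE 0.733), and to the plakophilin Pkp3 (-0.31, SE 0.175). Dsc2 was at 0.995 without irinotecan replicate 1, its highest library. Pkp3 was lower in every irinotecan library than in every solvent library, as held for 7.89% of all genes tested.

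Of 19 epithelial transcription and splicing regulators, 5 were tested and 0 had a positive log2 fold change (median -0.40, -0.31 without irinotecan replicate 1 and -0.20 with the trend on GC content and length removed). The Krüppel-like factors Klf4 and Klf5 were both the most abundant and those with the smallest p. Klf4 had 1761 ± 228 normalized counts with irinotecan and 2323 ± 217 with solvent (log2 fold change -0.40, SE 0.147), and Klf5 had 823 ± 161 and 1138 ± 186 (-0.47, SE 0.190; SD, n = 3 each). The limma adjusted p of both was 0.743. For Klf4 all irinotecan libraries lay below all solvent libraries, as held for 7.89% of all genes tested, and for Klf5 the groups overlapped. Of 18 other simple epithelial genes, 7 were tested, with a median of -0.050, which was -0.13 without irinotecan replicate 1 and 0.043 with that trend removed. The protease gene St14 had a log2 fold change of -0.58 (SE 0.533), or -0.36 without irinotecan replicate 1. Krt20 (-0.050, SE 0.148) and the integrin Itga6 (0.10, SE 0.238) were the most abundant, and Itga6 was at -0.17 without irinotecan replicate 1. Of the colon identity genes, 4 were tested, with a median of 0.26 by limma, 0.15 without irinotecan replicate 1, -0.012 by edgeR and -0.0068 by DESeq2. Lgals4 (-0.26, SE 0.403) and the intestinal cadherin Cdh17 (0.37, SE 0.693) had the smallest p. Without irinotecan replicate 1 both signs turned, to 0.20 for Lgals4 and -0.24 for Cdh17.

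Of 22 mesenchymal transition regulators, 19 were tested and 10 had a positive log2 fold change (median 0.039, and -0.064 without irinotecan replicate 1). The transcription factor Sox4 had 434 ± 57.5 normalized counts with irinotecan and 656 ± 108 with solvent (log2 fold change -0.59, SE 0.177, limma adjusted p = 0.743). Snai1, the Snail repressor, had 52.4, 201.3 and 293.9 normalized counts in irinotecan tumours and 361.8, 323.1 and 306.0 in solvent tumours. Each irinotecan library lay below the solvent range, as each did for Sox4, and as held for 7.89% of all genes tested. The log2 fold change of Snai1, -1.17 (SE 0.543, limma adjusted p = 0.743), was -0.44 without irinotecan replicate 1. The receptor tyrosine kinase Axl (16340 ± 3987 normalized counts with irinotecan and 14021 ± 1247 with solvent) and the chromatin protein Hmga2 (10851 ± 1270 and 13358 ± 1894) were the most abundant. The log2 fold change of Axl, 0.20 (SE 0.193), was 0.0058 without irinotecan replicate 1, its highest library.

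Of 25 symbols for mesenchymal cytoskeleton and matrix genes, in which Ctgf and Ccn2 name a single gene, 22 were tested and 6 had a positive log2 fold change (median -0.16, and -0.14 without irinotecan replicate 1). The smooth muscle actin gene Acta2 had 45.2, 68.4 and 121.6 normalized counts in irinotecan tumours and 187.9, 187.1 and 175.3 in solvent tumours (log2 fold change -1.33, SE 0.341, limma adjusted p = 0.743). All irinotecan libraries lay below all solvent libraries, as held for 7.89% of all genes tested. Without irinotecan replicate 1 the log2 fold change of Acta2 was -0.999 (limma adjusted p = 0.165). DESeq2 without that library called Acta2 (adjusted p = 0.0462), among 1.13% of its genes. The calcium-binding protein gene S100a4 had 802, 504 and 845 normalized counts in irinotecan tumours and 281, 205 and 232 in solvent tumours, again without overlap but with irinotecan higher (log2 fold change 1.55, SE 0.232, limma adjusted p = 0.662). Groups without overlap and with irinotecan higher made up 6.68% of all genes tested. DESeq2 on the same 6 libraries called S100a4 (adjusted p = 1.37e-05), as did limma with estimated library weights (adjusted p = 0.0154). Without irinotecan replicate 1 its log2 fold change was 1.45 (limma adjusted p = 0.0525). Fn1, fibronectin, had 59965 ± 9689 normalized counts with irinotecan and 53820 ± 6843 with solvent, and Lgals1, a galectin, had 10423 ± 5937 and 16626 ± 3013. These were the most abundant genes of the list per kilobase. Lgals1 was at 3656 normalized counts in irinotecan replicate 1 and at 12858 and 14755 in the other 2 irinotecan libraries, and its log2 fold change of -0.89 (SE 0.472) was -0.26 without irinotecan replicate 1.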

How the data were processed

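The build is GRCm38 (mm10) per the submitters' processing notes, which also name DESeq2 1.20.0, featureCounts 1.5.0-p3, HISAT2 2.0.5, fastp and CASAVA. Its annotation release and its strand setting are not stated in the notes or labels. The table deposited by the authors holds normalized counts, a signal equal to reads per gene divided by 1 factor per library: dividing each library by its smallest value above 0 gave whole reads for 100% of entries (tolerance 1e-06). The authors also deposited group means of this signal, log2 fold changes and p-values, as the file headers name them.

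Genes with a mean of at least 10 normalized counts were tested with limma 3.58.1 in R 4.3.3 (moderated, mean-variance trend) on log2(normalized count + 1), by group only, with Benjamini-Hochberg adjustment over 14639 genes. Fold changes on this scale understate changes of low genes. The fit was tested on simulated data. edgeR 4.0.16 and DESeq2 1.42.0 were run on the recovered reads. GC content was the median over GENCODE M21 transcripts. Members and lists were chosen with earlier results of these data known. From each list the text names the 2 genes with the smallest p and the 2 most abundant per kilobase, apart from items not reported here. Cdx2, Vil1, Krt5, Krt14, Krt80, Krt10, Krt87, Cdh5 and Cdh26 were named after their values were seen. So were Sfn, Trp63, Lyz2, Cd3e, Cd3g and Col1a2. Read counts bound counting error only.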

Additional observations from a re-analysis of the deposited data

How the results depend on the processing

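Over all genes limma called 0, edgeR with TMM, limma-voom, quantile normalization, a pseudocount of 10, a mean of at least 50, no filter and removal of the GC and length trend also called 0 (844 genes had an unadjusted p under 0.05 by limma, 869 by edgeR), DESeq2 called 52 and limma with estimated library weights 52. Leaving out 1 library at a time, with the genes tested kept, limma called 0 to 2 genes; without irinotecan replicate 1, edgeR called 2 and DESeq2 162. Of the members, 0 were called under every alternative except DESeq2 without irinotecan replicate 1, which called 1, Krt8 (log2 fold change 1.16, adjusted p = 0.0147). Of the pathway lists, DESeq2 called 1 gene (S100a4), library weights 2, and DESeq2 without irinotecan replicate 1 called 4 (S100a4 and Acta2 among them). The alternatives without irinotecan replicate 1 by edgeR and DESeq2 and the trend removal were chosen after seeing the data; the cause of these differences was not tested.

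Signs turned for 6 of the 8 members, none of them called. Cdh1 was at -0.14 with library weights and at -0.27 by limma, -0.30 by edgeR and -0.31 by DESeq2 without irinotecan replicate 1; Zeb1 was at -0.040, -0.075, -0.072 and -0.075 under the same settings, and Vim at 0.076 with quantile normalization. Leaving out 1 library at a time gave -0.27 to 0.57 for Cdh1, -0.076 to 0.030 for Cdh2, -0.075 to 0.25 for Zeb1, -0.020 to 0.27 for Snai2 and -0.099 to 0.17 for Twist1. With the replicate number as a block, 0 genes and 0 members were called. The labels give no pairing. The deviations of same-numbered libraries from their group means correlated at -0.11, -0.0087 and -0.21, and those of other pairs at -0.050 to 0.158. Deviations from the mean of so few libraries depend on each other, so these values cannot tell whether libraries were paired. The median of the colon identity genes, 0.26, was -0.058 at a mean of at least 50 and 0.11 with library weights. That of the transition regulators, 0.039, turned to -0.024 with quantile normalization and -0.014 with the trend removed. Epcam and Krt19 had too few reads to pass the filter, and whether this reflects depth or absent expression was not tested.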
